A study of Homo sapiens with 6 samples.

Results

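Amino acid and neurotransmitter transporters were taken as the protein-coding genes whose symbols start with SLC3A, SLC6A, SLC7A, SLC36A, SLC38A or SLC43A, and 30 of the 53 such genes in the annotation had 10 or more counts summed over the 6 libraries. They were 30 of the 20536 genes tested. The 30 comprised 2 of 2 SLC3A, 6 of 19 SLC6A, 9 of 14 SLC7A, 2 of 4 SLC36A, 8 of 11 SLC38A and 3 of 3 SLC43A genes. A172 is a human cell line established from a glioblastoma, and both groups were stable A172 lines made by lentiviral infection in the presence of polybrene, with virus packaged in HEK293T cells. The control line expressed GFP and the other line expressed RBFOX1, an RNA-binding protein of neurons that regulates splicing and mRNA stability, with 3 libraries of total RNA in each group. The sources used here call the libraries biological replicates but do not state whether they came from separate infections, or whether the lines were clones or pools, so p-values measure only the spread between these libraries.

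Cells take up, exchange and recycle amino acids through membrane carriers of the solute carrier (SLC) families. Heteromeric exchangers pair an SLC3A heavy chain with an SLC7A light chain, SLC6A carriers use the sodium gradient to take up neurotransmitters, taurine and creatine, and SLC38A carriers move glutamine and other small neutral amino acids. In the brain these carriers end synaptic signals and pass glutamine and cystine between astrocytes and neurons, and glioma cells use the same carriers for growth and for glutathione synthesis.

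Each library held between 7433414 and 23249221 counts on genes, the lowest being an RBFOX1 library and the highest a GFP library. A normalized count is a count scaled to the mean library size with edgeR's TMM factors, and 3 counts were worth 1.82 to 5.44 normalized counts. RBFOX1 had 4, 0 and 1 counts in the GFP libraries and 10276, 16467 and 21451 counts in the RBFOX1 libraries. Of 12 glial and glioma markers, S100B and AQP4 had 3 counts or fewer and GFAP 1 to 4 counts in every library. SOX9 (means of 1202 and 540 normalized counts in GFP and RBFOX1 cells) and OLIG2 (123 and 85.5) were lower. So were VIM (59588 and 37905) and CD44 (13766 and 7366). CHI3L1 (6.94 and 738), SOX2 (23.5 and 132) and NES (3482 and 5272) were higher. The summed level of these 12 markers lay at 5770 to 5830 CPM (counts scaled to a common library total) in GFP and 3890 to 3940 CPM in RBFOX1 libraries, where 3 of them were higher and 4 lower. Most of that sum was VIM in both groups. The summed level of 12 neuronal markers lay at 390 to 421 CPM in GFP and 1320 to 1470 CPM in RBFOX1 libraries (4 higher, 2 lower), although RBFOX3, SNAP25, ELAVL4 and NEFM had 3 counts or fewer everywhere. Most of that sum was NEFL, with means of 3949 and 18162 normalized counts, and the next most abundant, SYT1, fell from 1352 to 598. The summed level of 5 epithelial markers lay at 632 to 651 CPM and 2330 to 2430 CPM (4 higher). Nearly all of it was KRT18 (means of 6332 and 24922 normalized counts) and KRT8 (2519 and 8012). KRT19 had means of 21.4 and 34.7 and CDH1 of 0.389 and 4.82, and EPCAM (10.5 and 14.2) was not among the 4. The summed level of 6 immune markers lay at 2.5 to 3.5 CPM and 6.91 to 7.52 CPM (2 higher), with CD3E and AIF1 at 3 counts or fewer. Beside these counts of markers, 23.7% of all genes tested were higher and 22.9% lower. The part of these markers in the changes of the transporters was not tested, and in bulk RNA fewer cells of a type and less RNA per cell cannot be told apart.

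By edgeR's quasi-likelihood test (adjusted p below 0.05), RBFOX1 cells had 7 of the 30 transporter genes higher and 13 lower, and 10 did not pass. The share that was higher, 23.3%, was near the 23.7% of all genes tested, while the share that was lower, 43.3%, compared with 22.9% of all genes tested. With a log2 fold change of at least 1 required as well, 2 were higher and 4 lower, where 8.23% and 4.48% of all genes tested were. All 3 RBFOX1 libraries lay above all 3 GFP libraries for 7 transporter genes and below them for 14, against 26.9% and 26.5% of all genes tested. The median log2 fold change of the 30 was -0.12, against 0.0051 over all genes, and the median of its size was 0.54, against 0.38. This median lay between -0.22 and -0.11 when each library was left out in turn, the former without GFP replicate 1 or RBFOX1 replicate 1. Of the 30 genes, 22 had a mean of at least 50 normalized counts, as had 12012 of the 20536 genes tested. The shares called were not matched for this level.

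**Figure D1:**
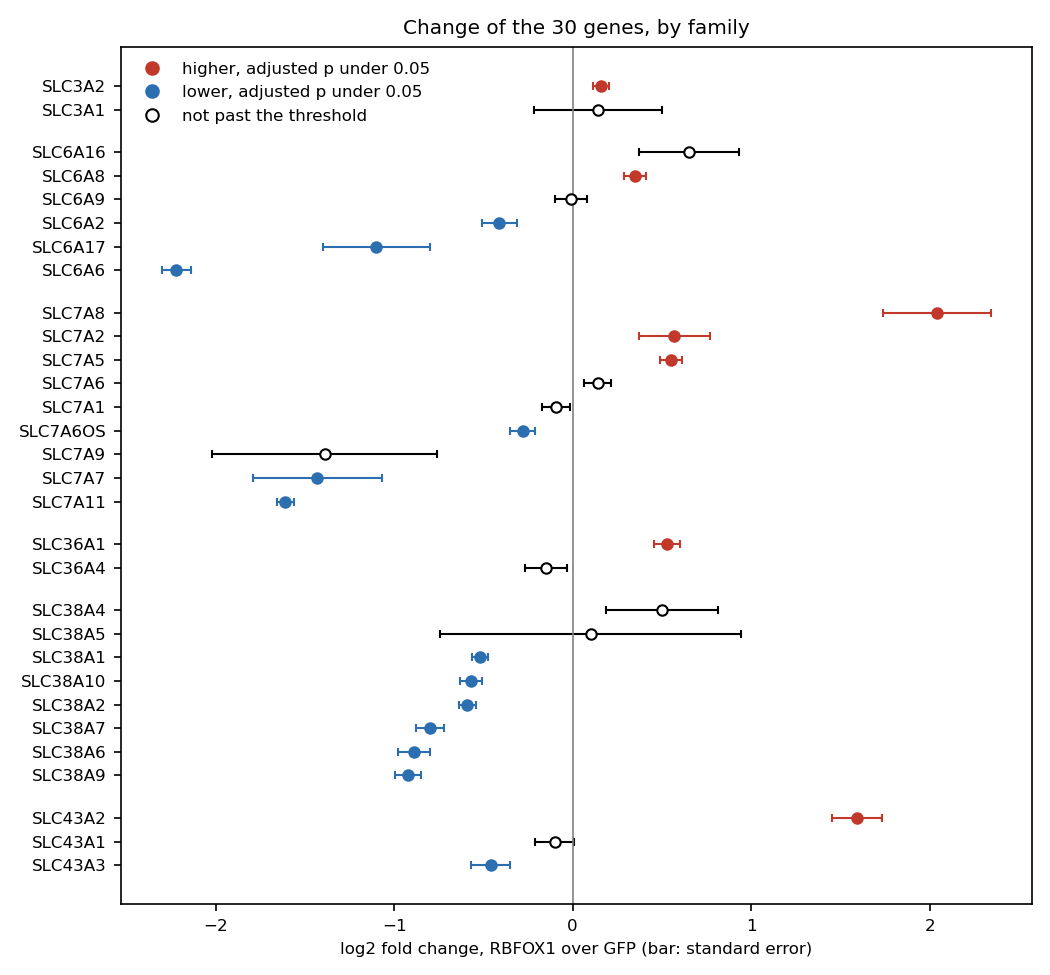
The log2 fold change of each of the 30 transporter genes (RBFOX1 over GFP, horizontal axis, with its standard error as a bar) is grouped by family, with colour marking the genes past an adjusted p of 0.05. All 6 coloured SLC38A genes sit left of 0, while SLC6A, SLC7A and SLC43A genes sit on both sides, from SLC6A6 at -2.22 to SLC7A8 at 2.04.

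The 3′ UTR sites of the RBFOX motif are shown first, since RBFOX1 binds TGCATG and these are the windows in which the overexpressed protein's motif stands in transcripts that changed. The motif was searched on the transcribed strand of the canonical 3′ UTR (GENCODE, GRCh38) and was present in 13 of the 30 genes (43.3%), against 36.5% of the 14073 protein-coding genes tested that had a 3′ UTR. It was found in 4 of the 7 genes that rose (57.1%), 4 of the 13 that fell (30.8%) and 5 of the 10 that passed in neither direction (50%). The median 3′ UTR was 2947, 2923 and 958 bases long in these groups and 1294 bases over the 14073 protein-coding genes. For the 8 changed genes with a motif, the occurrence nearest the stop codon is printed 5′ to 3′ on the transcribed strand with up to 12 bases on either side, in capitals for the motif. The first 4 lines are genes that rose and the last 4 genes that fell.
SLC43A2: ctgcccctcggcTGCATGcccacagccgta
SLC36A1: gctccagatgtcTGCATGggtcctcggcac
SLC6A8: ggattggaaaagTGCATGgtgggggcctcg
SLC3A2: aaaagtcaccccTGCATGgtgaa
SLC7A11: ttacgttagcaaTGCATGacggtttctcca
SLC38A2: ttttggtccaacTGCATGtcaacccttcca
SLC38A1: tggtgagaaatgTGCATGctccgtgagctg
SLC6A2: cctggtggttccTGCATGaagaggattatg

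These windows lie at chr17:1575201-1575230 (minus strand) for SLC43A2, chr5:151489065-151489094 (plus) for SLC36A1, chrX:153696166-153696195 (plus) for SLC6A8 and chr11:62888838-62888860 (plus) for SLC3A2. Those of the genes that fell lie at chr4:138168655-138168684 (minus) for SLC7A11, chr12:46359737-46359766 (minus) for SLC38A2, chr12:46187409-46187438 (minus) for SLC38A1 and chr16:55703824-55703853 (plus) for SLC6A2. The motif began 386 bases past the stop codon in SLC43A2, 823 in SLC36A1, 964 in SLC6A8 and 157 in SLC3A2, whose 3′ UTR is only 167 bases long. It began 3284 bases past the stop codon in SLC7A11, 1357 in SLC38A2, 1544 in SLC38A1 and 1490 in SLC6A2. SLC43A2, SLC7A11 and SLC6A2 each held 3 motifs, SLC36A1, SLC38A1 and SLC38A2 held 2 and SLC6A8 and SLC3A2 held 1. SLC7A1, the gene with the most motifs (4), did not pass the test, and SLC6A6, the gene that fell most, held none in its canonical 3′ UTR. Introns, coding exons and other 3′ UTRs were not searched, so a gene without a match may hold the motif there. Motif-bearing 3′ UTRs thus occurred among genes that rose, fell or did not pass the test, and a match is a description of the sequence, not evidence of binding.

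The heavy chains anchor the exchangers in the plasma membrane. SLC3A2 (ENSG00000168003, chromosome 11 from 62856004 to 62888880) encodes the heavy chain CD98, the common partner of the light chains of neutral, cationic and cystine exchangers. It had 4985, 4871 and 4984 normalized counts in GFP and 5572, 5444 and 5543 in RBFOX1 libraries, and the groups did not overlap. It rose by 0.16 on the log2 scale (standard error 0.045, adjusted p = 0.00665), a small change between close replicates. SLC3A1 encodes the heavy chain of the renal and intestinal cystine carrier and was barely present, with 6 to 21 counts per library and overlapping groups (log2 fold change 0.14, adjusted p = 0.807).

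Among the light chains, the cystine and the leucine exchanger changed in opposite directions. SLC7A11 (ENSG00000151012, chromosome 4 from 138164097 to 138242349) encodes xCT, which takes up cystine in exchange for glutamate and so feeds glutathione synthesis. Its normalized counts were 6508, 6949 and 6639 in GFP and 2215, 2197 and 2179 in RBFOX1 libraries. Every RBFOX1 library lay far below every GFP library, and the gene fell by 1.61 on the log2 scale (standard error 0.0482, adjusted p = 7.19e-16), or 3.05-fold. SLC7A5 (ENSG00000103257, chromosome 16 from 87830023 to 87869507) encodes LAT1, the exchanger for leucine and other large neutral amino acids. Its normalized counts were 3378, 3195 and 3421 in GFP and 5443, 4419 and 4838 in RBFOX1 libraries. The groups did not overlap although the RBFOX1 libraries were spread more widely, and SLC7A5 rose by 0.55 on the log2 scale (standard error 0.0615, adjusted p = 2.60e-07). SLC7A5 shares sequence with the pseudogene SLC7A5P1, which had 8 to 19 counts per library, so that a small part of its reads may be assigned to the wrong copy.

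The other light chains were present at lower levels. SLC7A8, the second exchanger of large neutral amino acids, had counts of 9, 7 and 7 in GFP against 17, 25 and 29 in RBFOX1 libraries. Despite the low counts the normalized values did not overlap (5.46 to 8.17 and 26.5 to 30.8), with the largest fitted rise of the 30 genes on the log2 scale, 2.04 (standard error 0.301, adjusted p = 1.05e-05). SLC7A7, an exchanger of cationic for neutral amino acids, had counts of 29, 13 and 21 in GFP against 6, 5 and 6 in RBFOX1 libraries. It fell by 1.43 on the log2 scale (standard error 0.362, adjusted p = 0.00276), with no overlap after normalization. SLC7A7 and SLC7A8 stand near each other on chromosome 14, at 22773222 to 22829820 and 23125295 to 23183674 on the minus strand, and changed in opposite directions. SLC7A6, which encodes a close relative of the SLC7A7 exchanger, lay at 432 to 453 normalized counts in GFP and 451 to 542 in RBFOX1 libraries and did not pass (log2 fold change 0.14, adjusted p = 0.139). SLC7A9, the renal partner of SLC3A1, had 12, 6 and 4 counts against 0, 2 and 4 counts. Its normalized values did not overlap, yet at this depth the difference did not pass the test (log2 fold change -1.39, standard error 0.631, adjusted p = 0.0799).

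Set per kilobase of the canonical transcript, the level of SLC3A2 was 189 ± 2.5 CPM per kilobase (SD, n = 3) in GFP and 211 ± 2.58 in RBFOX1 cells. In GFP cells SLC7A5 and SLC7A11 had like levels, 52.7 ± 1.89 and 50 ± 1.69 CPM per kilobase. In RBFOX1 cells SLC7A5 reached 77.5 ± 8.14 and SLC7A11 16.4 ± 0.134 CPM per kilobase. The ratio of SLC7A5 to SLC7A11 was 1.1, 0.973 and 1.09 in the GFP and 5.2, 4.26 and 4.7 in the RBFOX1 libraries, so the composition of the light chain transcripts differed between the groups in every library. The summed level of the light chains that pair with SLC3A2 was 109 ± 1.07 CPM per kilobase in GFP and 100 ± 8.88 in RBFOX1 cells, with values of 108 to 110 and 92.1 to 110 whose ranges met. The level of SLC3A2 depends on the length used and was 55.7 and 62.2 CPM per kilobase with all annotated exons joined, a choice added after seeing the data.

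**Figure D2:**
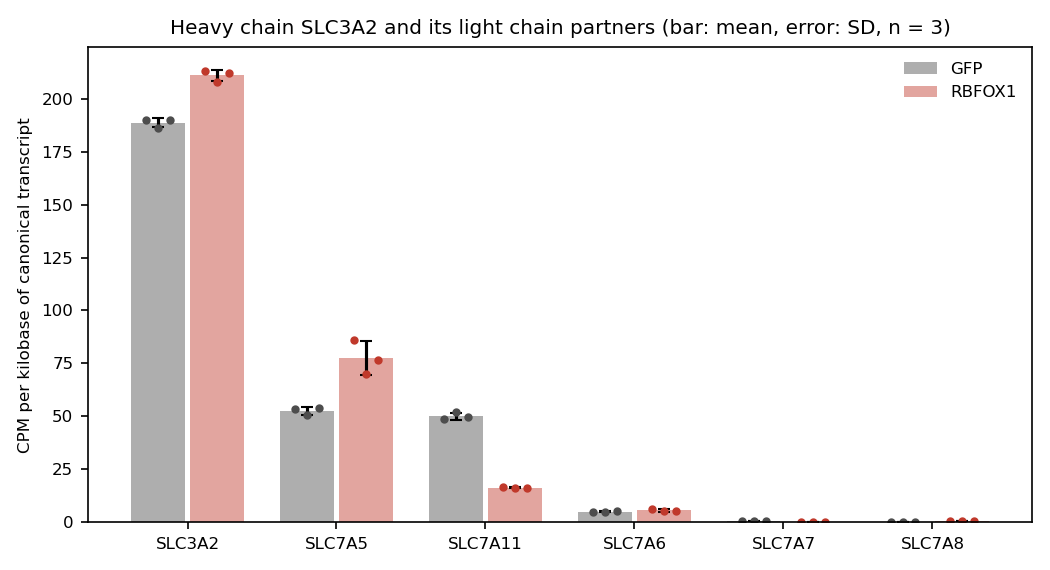
The level of the heavy chain SLC3A2 and of its light chain partners is plotted in CPM per kilobase of canonical transcript (vertical axis, from 0), with bars for group means, error bars for the SD over 3 libraries and points for single libraries. SLC7A5 and SLC7A11 stand side by side in GFP cells at 52.7 and 50, and apart in RBFOX1 cells at 77.5 and 16.4.

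The cationic amino acid transporters do not need a heavy chain. SLC7A1, the general carrier of arginine and lysine, lay at 1181, 1445 and 1469 normalized counts in GFP and at 1406, 1209 and 1225 in RBFOX1 libraries, overlapping and not past the threshold (log2 fold change -0.093, adjusted p = 0.354). Without GFP replicate 1, its lowest library, SLC7A1 passed with a log2 fold change of -0.19 (adjusted p = 0.00825). SLC7A2, an inducible arginine carrier, had 44.9, 66.6 and 42.1 normalized counts in GFP and 61.7, 61.1 and 93.1 in RBFOX1 libraries. Its groups overlapped and its rise was the least certain of the 7 (log2 fold change 0.57, standard error 0.199, adjusted p = 0.0241). The call was lost with DESeq2 (adjusted p = 0.0901) and without RBFOX1 replicate 3 (0.309), GFP replicate 1 (0.0826) or GFP replicate 3 (0.0813). SLC7A6OS meets the rule through its symbol only, since it encodes a nuclear import factor and no transporter. It overlaps SLC7A6 on the opposite strand and lay at 566, 517 and 541 normalized counts in GFP and 461, 421 and 460 in RBFOX1 libraries (log2 fold change -0.28, adjusted p = 0.0025). Without it, the lower genes in SLC7A were SLC7A11 and SLC7A7, and the higher were SLC7A5, SLC7A8 and SLC7A2.

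In the SLC6A family 1 of 6 genes rose (16.7%) and 3 fell (50%), against 23.7% and 22.9% of all genes tested. SLC6A6 (ENSG00000131389, chromosome 3 from 14402576 to 14489349) encodes the taurine transporter, which serves cell volume control in the brain. It had 860, 836 and 858 normalized counts in GFP and 209, 168 and 181 in RBFOX1 libraries. The groups lay far apart, and SLC6A6 had the largest fall of the 30 genes, -2.22 on the log2 scale (standard error 0.0796, adjusted p = 1.20e-14), or 4.65-fold. SLC6A8 (ENSG00000130821, X chromosome from 153687926 to 153696588), the creatine transporter, moved the other way, from 729, 747 and 807 to 958, 941 and 995 normalized counts. It rose by 0.35 on the log2 scale (standard error 0.0609, adjusted p = 8.22e-05), with no overlap between the groups.

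The neurotransmitter carriers proper were few. SLC6A2 (ENSG00000103546, chromosome 16 from 55655988 to 55707645), the noradrenaline transporter, was the only monoamine carrier among the 30, with SLC6A3 (dopamine) at 0 and SLC6A4 (serotonin) at 6 summed counts. SLC6A2 had 308, 281 and 292 normalized counts in GFP and 252, 190 and 230 in RBFOX1 libraries and fell by 0.41 on the log2 scale (standard error 0.0974, adjusted p = 0.0015). A same-strand gene model without a symbol covers 28.6% of its exon bases and took 18 to 55 counts per library, so its count is uncertain. SLC6A9, the glycine transporter of glia, was measured well and had overlapping groups, 294, 319 and 282 against 319, 263 and 309 normalized counts (log2 fold change -0.01, standard error 0.0893, adjusted p = 0.939). SLC6A17, a carrier of synaptic vesicles, had 38, 26 and 21 counts in GFP and 9, 11 and 9 in RBFOX1 libraries. It fell by 1.10 on the log2 scale (standard error 0.3, adjusted p = 0.00478), a call that was lost without RBFOX1 replicate 3 (log2 fold change -0.83, adjusted p = 0.0569). The orphan carrier SLC6A16 had 26, 16 and 16 counts against 22, 17 and 28, with normalized values that did not overlap but a change that missed the threshold (log2 fold change 0.65, adjusted p = 0.0645). Without RBFOX1 replicate 2 it passed, at 0.87 (adjusted p = 0.0234). The GABA transporters SLC6A11 and SLC6A13 had 4 and 1 counts summed over all libraries, and the betaine carrier SLC6A12 had 6.

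In the SLC38A family 6 of 8 genes were lower (75%, against 22.9% of all genes tested), and the median log2 fold change of the 8 was -0.58. By edgeR's quasi-likelihood test 0 SLC38A genes were higher, against 23.7% of all genes tested. On the same counts the number was also 0 with DESeq2, with limma-voom and at an unadjusted edgeR p under 0.05. SLC38A1 (ENSG00000111371, chromosome 12 from 46183063 to 46270017) and SLC38A2 (ENSG00000134294, chromosome 12 from 46358188 to 46372773) encode system A carriers, which accumulate glutamine and alanine inside the cell. SLC38A1 had 10173, 10776 and 10562 normalized counts in GFP and 7248, 7318 and 7341 in RBFOX1 libraries, and fell by 0.52 on the log2 scale (standard error 0.0461, adjusted p = 9.32e-09). SLC38A2 went from 7399, 7842 and 7751 to 5186, 5162 and 4971 normalized counts, and fell by 0.59 (standard error 0.0471, adjusted p = 2.48e-09). In both genes the 3 RBFOX1 libraries lay close together and below all GFP libraries. Their neighbour on the same strand, SLC38A4 (chromosome 12 from 46764761 to 46832408), also a system A carrier, had 10.9 to 22.2 and 12.7 to 26.5 normalized counts and did not pass (log2 fold change 0.50, adjusted p = 0.212).

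SLC38A9 (ENSG00000177058, chromosome 5 from 55625845 to 55773194), a lysosomal arginine sensor upstream of mTORC1, had the largest fitted fall of the family. Its normalized counts were 659, 648 and 598 in GFP and 321, 333 and 349 in RBFOX1 libraries (log2 fold change -0.92, standard error 0.0724, adjusted p = 1.78e-09). SLC38A7 (ENSG00000103042), which exports glutamine from lysosomes, went from 582, 627 and 607 to 395, 329 and 332 normalized counts (log2 fold change -0.80, adjusted p = 4.44e-08). SLC38A6 (ENSG00000139974), a less studied member, went from 280, 301 and 292 to 152, 163 and 152 (log2 fold change -0.89, adjusted p = 7.09e-08). SLC38A10 (ENSG00000157637), another less studied member, went from 1390, 1240 and 1315 to 952, 872 and 855 (log2 fold change -0.57, adjusted p = 1.80e-07). None of these 4 genes had overlapping groups. SLC38A5, a system N carrier of glutamine and histidine, had 0 to 6 counts per library and could not be judged at this depth. The summed level of the 8 genes was 272 ± 5.63 CPM per kilobase of canonical transcript (SD, n = 3) in GFP and 179 ± 2.2 in RBFOX1 cells.

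**Figure D3:**
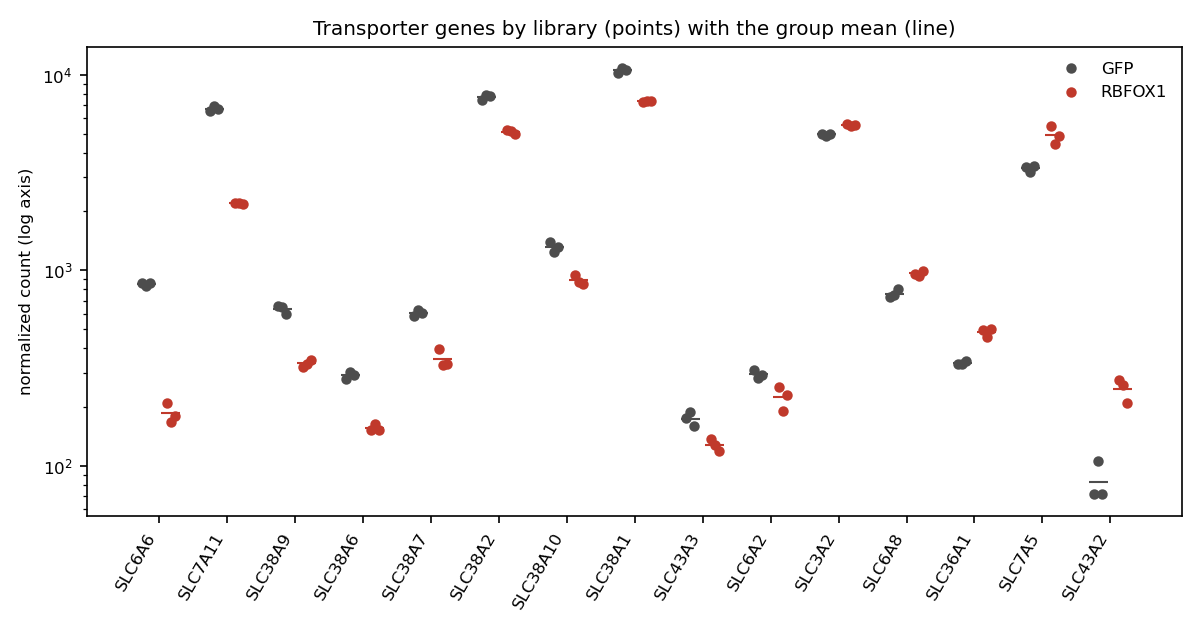
Normalized counts (vertical log axis) of the 15 genes other than SLC7A6OS, which is no transporter, with a mean of at least 50, an adjusted p under 0.05 and no overlap between groups are plotted with 1 point per library and a line at the group mean. The 10 genes on the left fell and the 5 on the right rose, from 4985, 4871 and 4984 to 5572, 5444 and 5543 in SLC3A2 and from 860, 836 and 858 to 209, 168 and 181 in SLC6A6.

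Of the proton-coupled SLC36A carriers, SLC36A1 (ENSG00000123643, chromosome 5 from 151437046 to 151492379), which exports small amino acids from lysosomes, rose. It had 332, 332 and 343 normalized counts in GFP and 493, 457 and 502 in RBFOX1 libraries (log2 fold change 0.53, standard error 0.0729, adjusted p = 4.49e-06). SLC36A4 lay at 167 to 220 and 147 to 191 normalized counts, overlapping (log2 fold change -0.15, adjusted p = 0.34). Among the lysosomal carriers, SLC36A1 thus rose where SLC38A7 and SLC38A9 fell.

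The SLC43A family of facilitative carriers held changes in both directions. SLC43A2 (ENSG00000167703, chromosome 17 from 1569268 to 1628886), a uniporter of large neutral amino acids, had 72.2, 106 and 71.6 normalized counts in GFP and 274, 259 and 211 in RBFOX1 libraries. It rose by 1.59 on the log2 scale (standard error 0.14, adjusted p = 9.67e-09), the largest rise among genes with a mean of at least 50 normalized counts. SLC43A3, which carries purine nucleobases, had 175, 188 and 160 normalized counts in GFP and 138, 128 and 119 in RBFOX1 libraries (log2 fold change -0.46, adjusted p = 0.00148). A second gene model on its strand covers 29.9% of its exon bases but took at most 1 count per library. SLC43A1, a relative of SLC43A2 with like substrates, lay at 141 to 166 and 131 to 158 normalized counts, overlapping (log2 fold change -0.10, adjusted p = 0.488).

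In order of level per kilobase of canonical transcript, GFP cells had SLC3A2 first, then SLC38A2 (115 CPM per kilobase), SLC38A1 (93.4), SLC7A5 and SLC7A11. In RBFOX1 cells SLC7A5 came second after SLC3A2, followed by SLC38A2 (76.7), SLC38A1 (65), SLC6A8 (17.7) and SLC7A11. SLC7A5 (69.9 to 86.1 CPM per kilobase) and SLC38A2 (76.7 on average) did not differ beyond the spread of SLC7A5. SLC6A6 went from place 12 to place 20 of 30. The summed level of the 30 genes was 644 ± 6.27 CPM per kilobase (SD, n = 3) in GFP and 560 ± 14.8 in RBFOX1 cells, and SLC3A2 made up 29.4% and 37.7% of it. With all annotated exons joined, SLC38A2 came first in GFP and SLC7A5 first in RBFOX1 cells, so the order at the top depends on the length used.

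Related genes were described by lists written by hand from general knowledge. Among 28 other amino acid and neurotransmitter transporters, 19 could be tested. Of these, 6 were higher (31.6%) and 7 lower (36.8%), against 23.7% and 22.9% of all genes tested. Their median log2 fold change was -0.13 (-0.0013 with a replicate block). SLC66A1, a lysosomal exporter of cationic amino acids, fell by 0.76 (standard error 0.0981, adjusted p = 1.93e-06) and SLC25A29, a mitochondrial carrier of basic amino acids, by 0.52 (0.0917, 8.84e-05) on the log2 scale. The mitochondrial carriers SLC25A13 (aspartate and glutamate) and SLC25A15 (ornithine) rose by 0.49 and 0.42. SLC25A18 and SLC1A2, named after their values were seen, were also higher but from group means of 0.351 and 0.592 to 7.04 and 3.37 normalized counts. SLC1A2 had 1, 1 and 0 counts in GFP and 0, 5 and 5 in RBFOX1 libraries, so its groups overlapped. The log2 fold change of SLC1A5, the main glutamine exchanger, was 0.013 (adjusted p = 0.88), and SLC1A3, the astrocytic glutamate transporter, was near absent, with a mean of 0.592 in GFP and 0 in RBFOX1 cells.

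SLC7A11, SLC7A5, SLC3A2 and SLC38A2 are known targets of ATF4, the transcription factor of the amino acid response, and SLC7A11 is also a target of NRF2, the factor of the antioxidant response. Of 28 genes of the ATF4 amino acid response, 9 were higher (32.1%) and 15 lower (53.6%), against 23.7% and 22.9% of all genes tested. The median log2 fold change of the 28 was -0.18. For ATF4 itself the log2 fold change was -0.067 (adjusted p = 0.292). VEGFA, an angiogenic factor, fell by 0.85 and SESN2, a leucine sensor, by 0.65, while the stress genes ATF3 and DDIT4 rose by 0.72 and 0.60. Of 24 genes of glutathione metabolism and the NRF2 response, 2 were higher (8.33%) and 17 lower (70.8%), where 23.7% and 22.9% of all genes tested were. Of the 17, 7 had a log2 fold change of at most -1, against 4.48% of all genes tested, and the median was -0.77. AKR1C1, an aldo-keto reductase with close copies in the genome that could share its reads, went from a mean of 678 to 93.8 normalized counts (log2 fold change -2.85, standard error 0.0954, adjusted p = 4.32e-15). GSR, which regenerates reduced glutathione, fell by 1.20 (standard error 0.0581, adjusted p = 1.09e-12). GPX4, the glutathione peroxidase of membrane lipids, rose by 0.38 (adjusted p = 1.12e-05) and TXNRD1, a thioredoxin reductase, by 0.13 (adjusted p = 0.0223). For NFE2L2, the gene of NRF2, the log2 fold change was 0.14 (adjusted p = 0.171). The part of ATF4 and NRF2 in the changes of the transporters was not tested.

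Of 20 cytosolic aminoacyl-tRNA synthetases, which charge tRNAs with amino acids, 3 were higher (15%) and 7 lower (35%), where 23.7% and 22.9% of all genes tested were. Their median was 0.0034. KARS1 (lysine) and FARSB (phenylalanine) rose by 0.54 and 0.40, and IARS1 (isoleucine) and WARS1 (tryptophan) fell by 0.58 and 0.45 on the log2 scale. The next list held 29 tested genes of lysosomal amino acid sensing upstream of mTORC1, the complex that SLC38A9 and SLC36A1 signal to. Of the 29, 6 were higher (20.7%) and 13 lower (44.8%), against 23.7% and 22.9% of all genes tested. The median of the 29 was -0.16. RRAGD, a Rag GTPase, and FNIP1, a folliculin partner, fell by 0.73 and 0.67, while FNIP2, the other folliculin partner, rose by 1.31 (standard error 0.0768, adjusted p = 1.97e-11). ITFG2, a subunit of the KICSTOR complex, rose by 0.52 (adjusted p = 0.00665), a call that was lost without GFP replicate 1 (0.36, adjusted p = 0.0573).

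Among 13 genes tested of neurotransmitter, creatine and taurine metabolism, 5 were higher (38.5%) and 4 lower (30.8%), with a median of 0.10. Of all genes tested, 23.7% were higher and 22.9% lower. CKB, the brain creatine kinase, went from a mean of 27.9 to 206 normalized counts (log2 fold change 2.84, standard error 0.157, adjusted p = 8.42e-12), in the same direction as the creatine transporter SLC6A8. GLUL, which makes glutamine from glutamate, rose by 0.91 (standard error 0.0505, adjusted p = 9.26e-12), opposite in direction to the glutamine carriers SLC38A1 and SLC38A2. GAD1, which makes GABA, fell by 0.47 on the log2 scale (adjusted p = 0.00109).

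**Figure D4:**
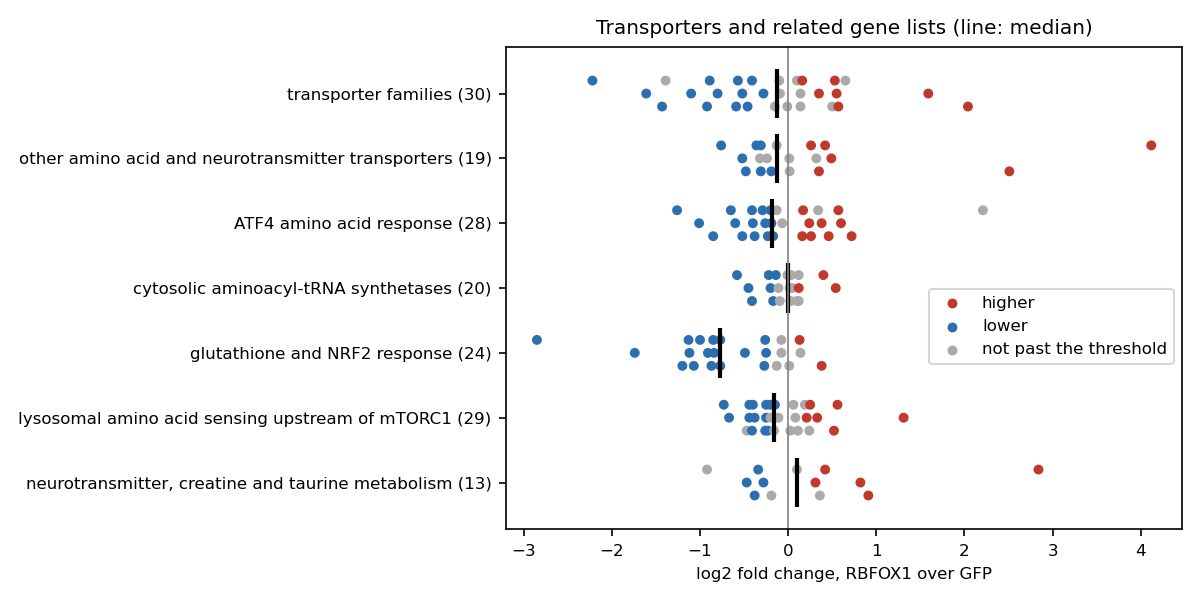
Each point is the log2 fold change (RBFOX1 over GFP, horizontal axis) of a tested gene of the 30 transporters or of a related list, with the number of genes in brackets, colour for genes past an adjusted p of 0.05 and a black line at the list's median. The median of the glutathione and NRF2 list stands at -0.77, while those of the transporters and of the 5 other lists lie between -0.18 and 0.10.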

How the data were processed

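The 6 libraries were stranded and made from rRNA-depleted total RNA of A172 cells. The authors used HISAT2 for alignment to GRCh38 and HTSeq-count for gene counts over the Ensembl annotation (tool versions not given in the sources used here), and deposited these unnormalized counts per gene and library. Of all read pairs, 38.15 to 48% fell on no single gene and stayed out of library sizes and tests. The deposited DESeq2 comparison of the authors (mean, log2 fold change, p-values) was not used.

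The groups were compared by the quasi-likelihood test of edgeR (version 4.0.16 under R 4.3.3, TMM, condition as the only term, two-sided), with Benjamini-Hochberg adjustment over the 20536 genes with at least 10 summed counts, at an adjusted p under 0.05. The procedure was tested on simulated counts. Alternatives were DESeq2 (1.42.0) and its size factors, limma-voom (limma 3.58.1), upper quartile scaling, other filters on low counts, a replicate block and each library left out. GENCODE release 44 (GRCh38) gave symbols, positions, transcript lengths and 3′ UTRs, and 98.1% of 58051 identifiers matched. It is later than the Ensembl release used for counting, so levels per kilobase, 3′ UTRs and exon overlaps may differ from the models counted. The members, roles and gene lists were chosen with earlier results of these data known. Genes named with full statistics were up to 15 members per direction, by size of change, past the threshold, with a mean of at least 50 normalized counts and no overlap between groups (5 and 11 met this), and 10 chosen by symbol. Every other member was named by family, and each list gave up to 2 genes per direction by the same rule, plus ATF4, SLC1A5 and SLC1A3. Each library was counted as a sample, as the study's methods describe biological replicates. The counts of every replicate pair differed by more than sampling noise (chi-square per degree of freedom at least 1.66). This excludes a library deposited in duplicate but does not tell separate samples from repeat libraries of the same RNA. The value was 8.9 and 9.07 for GFP replicate 1 against GFP replicates 2 and 3, and at most 3.01 in every other pair. Correlations of log2 CPM in the GFP pairs were 0.991 to 0.992. Limits of 3 counts cover counting error only. The values of some genes that the naming rules would give are not reported here.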

Additional observations from a re-analysis of the deposited data

How the results depend on the processing

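The counts of transporter genes stayed at 6 to 8 higher and 12 to 14 lower when each library was left out in turn, and the median of all genes tested moved by under 0.1 on the log2 scale under every scaling. The numbers of higher SLC6A genes ranged from 1 to 2 with each library left out, those of higher synthetases from 2 to 5, of higher glutathione and NRF2 genes from 1 to 2 and of higher genes of the metabolism list from 3 to 5. The filterByExpr filter gave 5 higher synthetases, upper quartile scaling 1 higher glutathione and NRF2 gene, and DESeq2 3 higher genes of the metabolism list. The cause of these moves was not tested. Genes near 0 changed sign without a call. SLC1A5 was at -0.01 under upper quartile scaling, -0.0066 without GFP replicate 2, -0.005 without GFP replicate 3 and -0.013 without RBFOX1 replicate 1, and between -0.013 and 0.069 over all such omissions. SLC3A1 was at -0.071 without GFP replicate 3 (range -0.071 to 0.45), and SLC6A9 at 0.0048 with filterByExpr, 0.026 without GFP replicate 2 and 0.078 without RBFOX1 replicate 2 (range -0.046 to 0.078). TXNRD1 lost its call under upper quartile scaling (adjusted p = 0.0556) and without GFP replicate 2 (0.0944), GFP replicate 3 (0.0871) or RBFOX1 replicate 3 (0.101).

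Same-numbered GFP and RBFOX1 libraries did not deviate together (correlations across 12012 genes of -0.174, 0.0348 and -0.0586), so the numbers were not taken to pair them. With a replicate block 6 transporter genes were higher and 13 lower, and SLC7A2 lost its call (adjusted p = 0.0601). Depth limits SLC38A5, SLC7A9, SLC3A1 and the 23 genes of these families with under 10 summed counts, for which a difference was not detectable.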

Other observations

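Of 16 noncoding genes and pseudogenes named after these transporters, 3 had enough counts for edgeR's quasi-likelihood test. SLC38A4-AS1 had 29, 16 and 22 counts in GFP and 8, 11 and 19 in RBFOX1 libraries (log2 fold change -0.39, adjusted p = 0.294). SLC7A11-AS1, which overlaps SLC7A11 on the opposite strand, had 1 to 5 counts per library (log2 fold change -0.27, adjusted p = 0.795), while SLC7A11 fell. SLC7A5P1 had a log2 fold change of 0.64 (adjusted p = 0.126).

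RefSeq promoter windows (GRCh38.p14, 250 bases before to 50 after the start site) matched 24 of the 30 transporter genes. The amino acid response core TGATGNAA, searched on both strands, was present in those of SLC38A1, SLC3A2 and SLC7A1, 3 of 24 (12.5%), against 3.67% of 27305 promoters. The antioxidant response core TGACNNNGC was present in 5 of 24 (20.8%), those of SLC3A2, SLC7A1, SLC7A5, SLC7A6 and SLC7A7, against 13.6% of all promoters. Genes with a match included ones that rose, fell and did not pass the test. The 27305 promoters were not limited to the genes tested, so the shares do not come from like sets. Sequence outside these windows was not searched, so a gene without a match may hold the core elsewhere.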
